A study of Mus musculus with 6 samples.

Results

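The genes described here encode the parts of the cardiac sarcomere other than myosin and actin: the troponins, tropomyosins and other proteins of the thin filament, the myosin-binding and M-band proteins, the proteins of the Z-disc, and the proteins of the costamere, which ties the sarcomere to the cell membrane. They were chosen by symbol from a list of 34 genes, and each gene was represented by its probe with the highest mean log2 intensity over the 6 arrays. Of the 34 genes, 31 had a probe with a gene name, out of 19053 such genes on the array, and 25 were bright enough to be tested, out of 11166 tested genes. Tnnt2, Smpx and Trim55 had no named probe and were not analysed here.

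The series profiled whole mouse hearts on Illumina bead arrays, taken 3 weeks after thoracic aortic constriction (TAC), a surgical narrowing of the aorta that loads the left ventricle with pressure, or after a sham operation. Transgenic mice carried a heart-specific JMJD2A transgene (JMJD2A-tg), which encodes a histone lysine demethylase, and were set against wild-type mice of the same FvB background. There were 2 arrays of JMJD2A-tg TAC hearts, 2 of wild-type TAC hearts, 1 of a JMJD2A-tg sham heart and 1 of a wild-type sham heart. The sample labels gave an age of 8 weeks for every mouse, while the text on the whole study gave an age in years. Neither the promoter that drives the transgene nor whether an array held RNA of 1 animal or of a pool is stated in the sources used here, and p-values measure only the spread between these arrays.

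In striated muscle, calcium binds troponin on the thin filament, tropomyosin shifts along actin, and myosin heads can then attach and pull. Thin filaments are anchored at the Z-disc, thick filaments are cross-linked at the M-band, and the desmin network and the dystrophin complex carry force sideways to the membrane and the matrix. Pressure overload enlarges cardiac myocytes, and a return of fetal or skeletal isoforms of contractile proteins is a known feature of such hearts.

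Values are the deposited intensities on a log2 scale, and a difference of 1 is a doubling. Pairs of arrays correlated at 0.984 to 0.994 over all probes, and the array medians lay between 56.3 and 56.4 intensity units. Kdm4a, the mouse gene for JMJD2A, had 2 probes above the intensity filter, at 6.45 to 6.75 and at 6.32 to 7.03, with JMJD2A-tg and wild-type arrays overlapping on both. Whether those probes match the transgene's transcript is not known here, so Kdm4a did not check the genotype labels. Xist, the RNA of the inactive X chromosome in females, stood at 10.36 and 11.03 in the JMJD2A-tg TAC arrays, 10.50 and 5.38 in the wild-type TAC arrays, 5.41 in the JMJD2A-tg sham array and 10.50 in the wild-type sham array. The low arrays were the second wild-type TAC array and the JMJD2A-tg sham array, and the labels gave no sex. Within JMJD2A-tg hearts TAC therefore cannot be told apart from the difference in Xist, and between the sham arrays neither can genotype.

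Of the thin filament, Z-disc, M-band and costamere genes, no member passed the test in any of the 6 tested comparisons (limma, Benjamini-Hochberg adjusted p threshold of 0.05). Of the 25 tested members, 13 spanned less than 0.6 on the log2 scale from the lowest to the highest of the 6 arrays. The 6 that spanned 1 or more were Synpo2l (1.84), Myot (1.73), Trim63 (1.67), Mybpc2 (1.47), Vim (1.23) and Tpm2 (1.06).

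**Figure D1:**
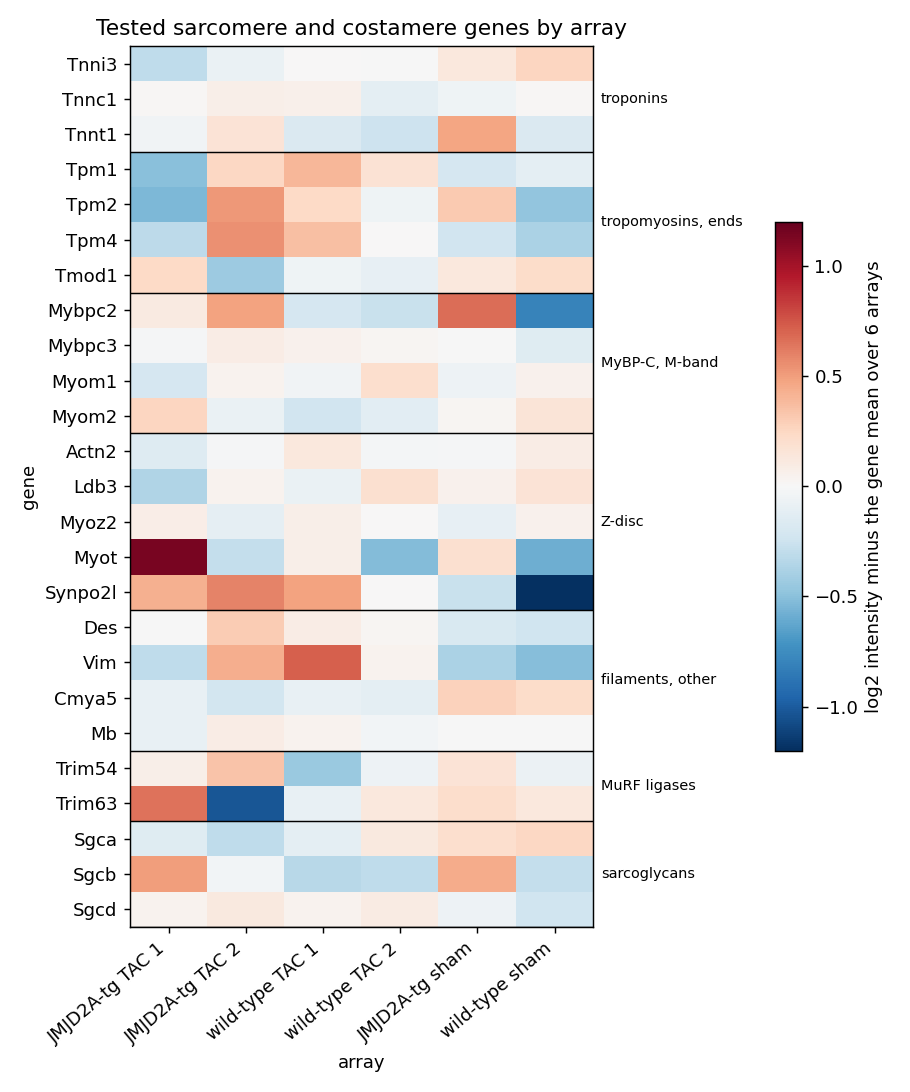
Log2 intensity of each tested member on each array, minus that member's mean over the 6 arrays, with members ordered by role. The strongest colours lie on Synpo2l, Myot, Trim63, Mybpc2, Vim and Tpm2, while 13 of 25 members span less than 0.6.

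Among the troponins, Tnnc1, the calcium-binding subunit of cardiac and slow muscle, was among the brightest probes on the array. Tnnc1 stood at 14.40 and 14.46 in the JMJD2A-tg TAC arrays, 14.45 and 14.27 in the wild-type TAC arrays, 14.33 in the JMJD2A-tg sham array and 14.41 in the wild-type sham array, so all groups overlapped or lay within 0.19. Tnni3, the adult cardiac inhibitory subunit, was read at 11.24 and 11.46 in the JMJD2A-tg TAC arrays and 11.54 and 11.54 in the wild-type TAC arrays, against 11.66 in the JMJD2A-tg sham array and 11.79 in the wild-type sham array. All 4 TAC arrays lay below both sham arrays for Tnni3. Tnnt1, the slow skeletal troponin T, stood at 10.12 and 10.33 in the JMJD2A-tg TAC arrays and 10.63 in the JMJD2A-tg sham array, against 9.99 and 9.91 in the wild-type TAC arrays and 9.99 in the wild-type sham array. Every JMJD2A-tg array was above every wild-type array for Tnnt1, the sham array furthest. Tnni1, the fetal and slow skeletal inhibitory subunit, stayed between 5.71 and 5.90 on all arrays, under the intensity filter, and was not tested.

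The tropomyosins, which lie along the actin helix, varied most between the JMJD2A-tg TAC arrays. Tpm1, the main tropomyosin of the mouse heart, stood at 9.73 and 10.48 in the JMJD2A-tg TAC arrays, 10.64 and 10.41 in the wild-type TAC arrays, 10.04 in the JMJD2A-tg sham array and 10.12 in the wild-type sham array. Tpm4, a cytoskeletal tropomyosin, was read at 11.51 and 12.37 in the JMJD2A-tg TAC arrays, 12.19 and 11.83 in the wild-type TAC arrays, 11.59 in the JMJD2A-tg sham array and 11.44 in the wild-type sham array. The brightest probe of Tpm2, the beta-tropomyosin of slow and fast skeletal muscle, gave 8.70 and 9.76 in the JMJD2A-tg TAC arrays, 9.47 and 9.18 in the wild-type TAC arrays, 9.55 in the JMJD2A-tg sham array and 8.76 in the wild-type sham array. In all 3 tropomyosins the first JMJD2A-tg TAC array was below the second, by 0.75 for Tpm1, 0.86 for Tpm4 and 1.06 for Tpm2, and the groups overlapped. Tmod1, which caps the slow-growing end of the thin filament, ran the other way within that pair, with 11.17 and 10.49 in the JMJD2A-tg TAC arrays, 10.88 and 10.83 in the wild-type TAC arrays, 11.06 in the JMJD2A-tg sham array and 11.15 in the wild-type sham array. Lmod2, a thin filament length regulator, was under the filter at 5.47 to 5.87.

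Mybpc2, the fast skeletal myosin-binding protein C, stood at 8.48 and 8.86 in the JMJD2A-tg TAC arrays and 9.05 in the JMJD2A-tg sham array, against 8.17 and 8.11 in the wild-type TAC arrays and 7.58 in the wild-type sham array. Every JMJD2A-tg array was above every wild-type array. Mybpc3, the cardiac form, lay between 13.89 and 14.13 on all 6 arrays and did not share that pattern of values. Of the M-band proteins, Myom1 (myomesin 1) lay between 13.47 and 13.88, and Myom2, the adult fast-fibre and heart myomesin, was at 13.12 and 12.77 in the JMJD2A-tg TAC arrays, 12.62 and 12.73 in the wild-type TAC arrays, 12.87 in the JMJD2A-tg sham array and 13.00 in the wild-type sham array. The highest intensity in the data was 25873, and Actn2, Tnnc1, Mb and Mybpc3 averaged 22212, 21451, 20004 and 16838. An increase in genes this bright may be read as smaller than it was, but saturation was not tested.

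At the Z-disc, Synpo2l, an actin-binding protein related to synaptopodin 2, moved over the widest range. It stood at 9.36 and 9.53 in the JMJD2A-tg TAC arrays and 9.42 and 8.94 in the wild-type TAC arrays, against 8.67 in the JMJD2A-tg sham array and 7.69 in the wild-type sham array. All TAC arrays were above both sham arrays, and the sham arrays themselves were 0.98 apart. Myot (myotilin, an alpha-actinin and filamin partner) gave 9.45 and 8.02 in the JMJD2A-tg TAC arrays and 8.50 in the JMJD2A-tg sham array, against 8.38 and 7.79 in the wild-type TAC arrays and 7.72 in the wild-type sham array. The genotypes overlapped for Myot, and 1.43 separated the JMJD2A-tg TAC pair. Actn2 (alpha-actinin 2, the main cross-linker of the Z-disc) lay between 14.28 and 14.56, Myoz2 (calsarcin 1, which binds calcineurin) between 12.79 and 12.97, and Ldb3 (Cypher) between 10.88 and 11.43. Myoz1, Nebl and Nexn were under the filter.

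Des, the muscle intermediate filament, was read at 13.41 and 13.72 in the JMJD2A-tg TAC arrays and 13.51 and 13.44 in the wild-type TAC arrays, against 13.24 in the JMJD2A-tg sham array and 13.18 in the wild-type sham array. Cmya5 (myospryn, a costameric partner of desmin) was at 13.28 and 13.15 in the JMJD2A-tg TAC arrays and 13.28 and 13.25 in the wild-type TAC arrays, against 13.64 in the JMJD2A-tg sham array and 13.59 in the wild-type sham array. TAC and sham arrays were apart for both, with Des higher and Cmya5 lower in the TAC arrays. Vim, the intermediate filament of fibroblasts and other mesenchymal cells, gave 10.79 and 11.53 in the JMJD2A-tg TAC arrays and 11.82 and 11.14 in the wild-type TAC arrays, against 10.72 in the JMJD2A-tg sham array and 10.58 in the wild-type sham array. The lower of these TAC arrays was within 0.1 of the JMJD2A-tg sham array. In whole hearts a difference in such a gene can come from a change in the number of cells of a type or from a change in RNA per cell, which cannot be told apart. Mb, the oxygen-binding myoglobin, stayed between 14.20 and 14.37.

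Of the MuRF ubiquitin ligases, which mark sarcomere proteins for breakdown, Trim54 (MuRF3) stood at 11.88 and 12.16 in the JMJD2A-tg TAC arrays and 11.98 in the JMJD2A-tg sham array, against 11.37 and 11.75 in the wild-type TAC arrays and 11.74 in the wild-type sham array. Every JMJD2A-tg array was above every wild-type array. Trim63 (MuRF1, the atrophy-linked member) gave 9.55 and 7.87 in the JMJD2A-tg TAC arrays, 8.80 and 9.02 in the wild-type TAC arrays, 9.11 in the JMJD2A-tg sham array and 9.02 in the wild-type sham array. The JMJD2A-tg TAC arrays were thus the highest and the lowest of the 6 for Trim63, 1.67 apart.

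Of the sarcoglycans, membrane proteins of the dystrophin complex, Sgcb was at 11.54 and 11.00 in the JMJD2A-tg TAC arrays and 11.48 in the JMJD2A-tg sham array, against 10.70 and 10.73 in the wild-type TAC arrays and 10.75 in the wild-type sham array. Sgca was at 11.03 and 10.87 in the JMJD2A-tg TAC arrays and 11.06 and 11.29 in the wild-type TAC arrays, against 11.38 in the JMJD2A-tg sham array and 11.43 in the wild-type sham array. Sgcb was higher on all JMJD2A-tg arrays, and Sgca was lower on all TAC arrays. Sgcd was dimmer, with 6.60 and 6.67 in the JMJD2A-tg TAC arrays, 6.59 and 6.65 in the wild-type TAC arrays, 6.49 in the JMJD2A-tg sham array and 6.31 in the wild-type sham array. All 3 probes of Dmd, which encodes dystrophin, were under the filter, and Dmd was not tested.

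For TAC against sham over both genotypes, Synpo2l, Des, Vim and Sgcd were higher and Cmya5, Sgca and Tnni3 lower in all TAC arrays, but none of them passed the test. Synpo2l had the largest difference, 1.13 ± 0.21 (log2, SE) or 2.19-fold, with an unadjusted p of 0.000422 and an adjusted p of 0.225 (limma, 4 arrays against 2). Vim followed by size at 0.67 ± 0.25 (adjusted p = 0.454), and Des was at 0.31 ± 0.11 (adjusted p = 0.438). On the lower side, Cmya5 was at -0.38 ± 0.09 (adjusted p = 0.313), Sgca at -0.34 ± 0.13 (adjusted p = 0.491) and Tnni3 at -0.28 ± 0.12 (adjusted p = 0.512).

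Of the 25 tested members 0 passed, while 0.00896% of all tested genes did, which was 1 gene. At an unadjusted p under 0.05 there were 6 members, 3 higher and 3 lower, and 9.25% of all genes. TAC and sham arrays did not overlap in 4 members that were higher and 3 that were lower, against 8.38% and 8.16% of all genes. The median over the members was 0.01 (14 higher, 11 lower) and over all tested genes -0.01.

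**Figure D2:**
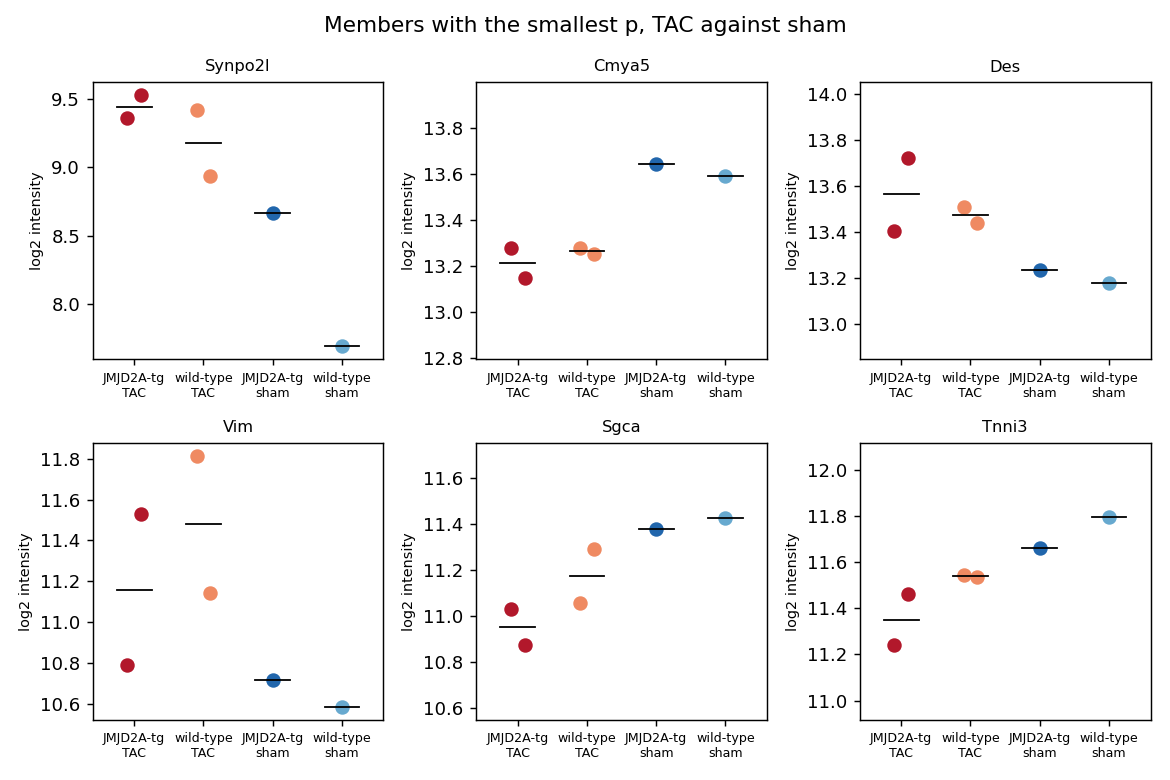
Log2 intensity of the 6 members with the smallest p for TAC against sham, 1 point per array and a line at each group's mean. In every panel the 4 TAC arrays lie on the same side of the 2 sham arrays, with Synpo2l furthest apart at 1.13.

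The fibroblast marker list had 7 of its 8 genes above the filter, without Postn. Its summed intensity was 21190 and 25393 in the JMJD2A-tg TAC arrays and 23889 and 18701 in the wild-type TAC arrays, against 18028 in the JMJD2A-tg sham array and 16400.5 in the wild-type sham array. The highest sum was on the second JMJD2A-tg TAC array, with Vim at 11.53, and the highest Vim value, 11.82, on the first wild-type TAC array. The first JMJD2A-tg TAC array, at a sum of 21190, had Vim at 10.79, the lowest of the TAC arrays. Dcn, at 13.59 to 14.01, was the brightest gene of the list on every array, so the sum mostly follows Dcn. The endothelial list, with 6 of 7 genes above the filter and Kdr below it, summed to 10005 and 14049 in the JMJD2A-tg TAC arrays. It summed to 14140 and 14070 in the wild-type TAC arrays, 10797 in the JMJD2A-tg sham array and 12124 in the wild-type sham array. TAC and sham arrays overlapped for it. The part of these markers in the Vim values was not tested. The cardiomyocyte list, with 9 of 10 genes above the filter and Rbm20 without a probe, summed to 50219 and 58503 in the JMJD2A-tg TAC arrays and 52938 and 57741 in the wild-type TAC arrays, against 56625 in the JMJD2A-tg sham array and 62192 in the wild-type sham array.

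The atrial list, with 6 of 7 genes above the filter and Bmp10 below it, summed to 22144 and 26562 in the JMJD2A-tg TAC arrays and 30701 and 24797 in the wild-type TAC arrays, against 16719 in the JMJD2A-tg sham array and 11403 in the wild-type sham array. That sum was carried by Nppa, the natriuretic peptide gene. Without Nppa the other 5 genes summed to 1614 and 4138 in the JMJD2A-tg TAC arrays and 9292 and 2147 in the wild-type TAC arrays, against 1775 in the JMJD2A-tg sham array and 1313 in the wild-type sham array, and TAC and sham arrays overlapped. The part of these genes in the values of Synpo2l, Des and Vim was not tested. The smooth muscle list, which contains Des and had 7 of 8 genes above the filter, overlapped between TAC and sham at 16618 to 33046 after TAC and 17443 to 22403 after sham.

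Within wild-type hearts, Synpo2l was 1.49 ± 0.28 higher after TAC (adjusted p = 0.648), Vim 0.90 ± 0.36 and Mybpc2 0.56 ± 0.27. Cmya5 was at -0.32 ± 0.15, Myom2 at -0.33 ± 0.19 and Sgcd at 0.31 ± 0.18, with adjusted p values of 1.00 for these and for Vim and Mybpc2 (limma, 2 arrays against 1). None of the 25 members passed, as was so for 0% of all genes, and 2 members against 3.56% of all genes had an unadjusted p under 0.05. Both TAC arrays were above the sham array in 10 members and below it in 7, against 34.4% and 38.7% of all genes.

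Within JMJD2A-tg hearts, Cmya5 was at -0.43 ± 0.15, Synpo2l at 0.77 ± 0.28, Sgca at -0.42 ± 0.21, Des at 0.33 ± 0.17, Tnnt1 at -0.41 ± 0.22 and Tnni3 at -0.31 ± 0.19, each with an adjusted p of 0.991 (limma, 2 arrays against 1). None of the 25 members passed, as was so for 0% of all genes, and 2 members against 4.86% of all genes had an unadjusted p under 0.05. Both TAC arrays were above the sham array in 5 members and below it in 6, against 31.1% and 30% of all genes. Without the first JMJD2A-tg TAC array, which leaves 1 array against 1, Trim63 was at -1.24, against -0.40 ± 0.56 with all arrays. That value rests on the second array alone, and Trim63 was higher than sham on the array left out.

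Synpo2l and Cmya5 had the same sign in both genotypes. The responses to TAC differed between genotypes past the test in 0 of the 25 members (limma) and in 0% of all genes. Mybpc2 alone had an unadjusted p under 0.05 among the members, as did 1.64% of all genes. Its difference of responses was -0.94 ± 0.38 with an unadjusted p of 0.0387 and an adjusted p of 1.00 (limma), and with the TAC arrays above sham in wild-type hearts and below sham in JMJD2A-tg hearts. Synpo2l differed by -0.71 ± 0.40, Tpm2 by -0.89 ± 0.57, Vim by -0.45 ± 0.50, Myom2 by 0.40 ± 0.27 and Tnnt1 by -0.37 ± 0.31, all with an adjusted p of 1.00. Without the second JMJD2A-tg TAC array Tpm2 differed by -1.42 and Vim by -0.82, and without the first by -0.36 and -0.09. The responses of both genotypes rest on 1 sham array each, and the JMJD2A-tg sham array was low in Xist.

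**Figure D3:**
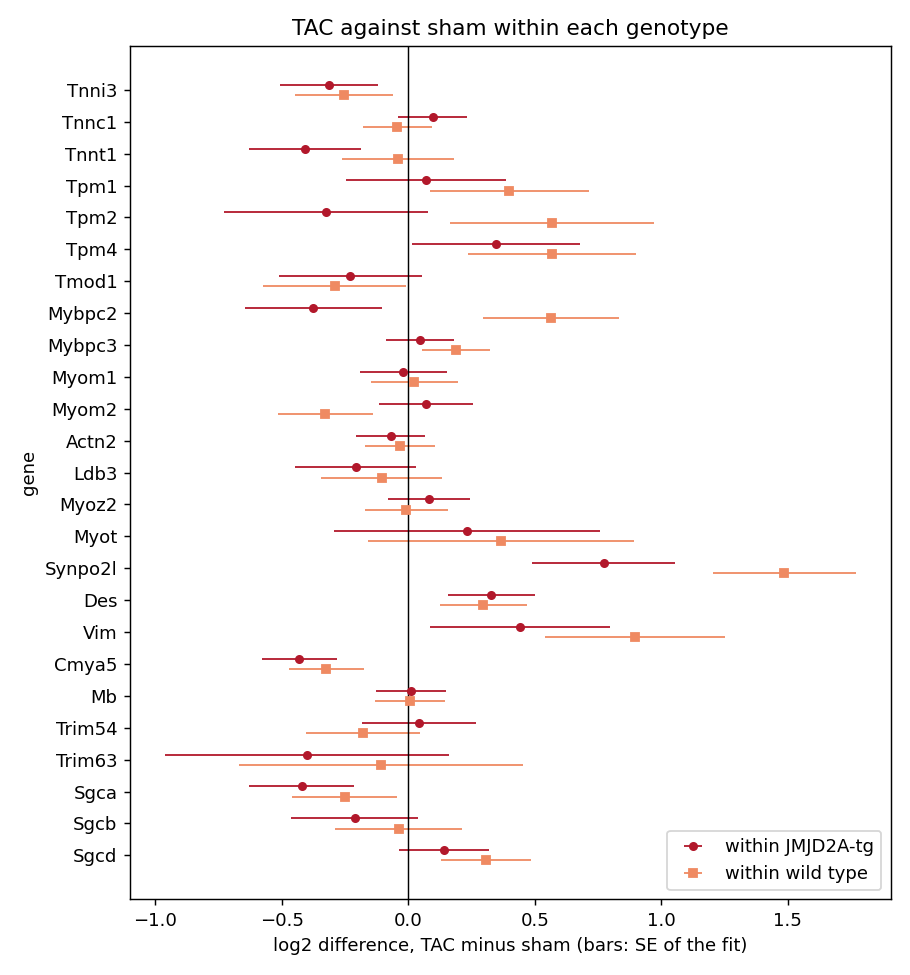
Log2 difference of TAC from sham within JMJD2A-tg and within wild-type hearts for the tested members, with standard errors from the 4-group fit. Mybpc2 lies at -0.38 in JMJD2A-tg hearts and 0.56 in wild-type hearts, and Synpo2l at 0.77 and 1.49.

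For JMJD2A-tg against wild type over both surgeries, 5 members had an unadjusted p under 0.05, all of them higher in JMJD2A-tg arrays, and none passed after adjustment. Sgcb was 0.61 ± 0.15 higher (adjusted p = 0.127), Mybpc2 0.84 ± 0.21 (adjusted p = 0.131), Tnnt1 0.40 ± 0.14 (adjusted p = 0.296) and Trim54 0.39 ± 0.14 (adjusted p = 0.314; limma, 3 arrays against 3). These 4 were also the members in which every JMJD2A-tg array exceeded every wild-type array. Synpo2l at 0.50 ± 0.20 (adjusted p = 0.382) and Myot at 0.69 ± 0.32 (adjusted p = 0.464) overlapped between genotypes.

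The members past the test were 0 of 25, while 0.949% of all tested genes passed, which was 106 genes. The 5 members at an unadjusted p under 0.05 stood beside 11.5% of all genes. The 4 members with no overlap that were higher, and the 0 that were lower, stood beside 7.59% and 8.55% of all genes. The median over members was 0.01 (13 higher, 12 lower) and over all genes -0.01. The other Sgcb probe gave 0.50 ± 0.13 in the same direction and also did not overlap (adjusted p = 0.221 over all probes).

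Calls for these genes turned on single arrays. Without the second JMJD2A-tg TAC array, in which Sgcb and Myot were lowest of their genotype, Sgcb was at 0.78 (adjusted p = 0.00697) and Myot at 1.11 (adjusted p = 0.0231), and both passed. In that fit 474 of all tested genes passed, against 106 with all arrays. Without the first JMJD2A-tg TAC array, Mybpc2 was at 1.04 (adjusted p = 0.0361) and passed, among 132 of all tested genes. Leaving out any of the other 4 arrays gave 0 members past the test.

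**Figure D4:**
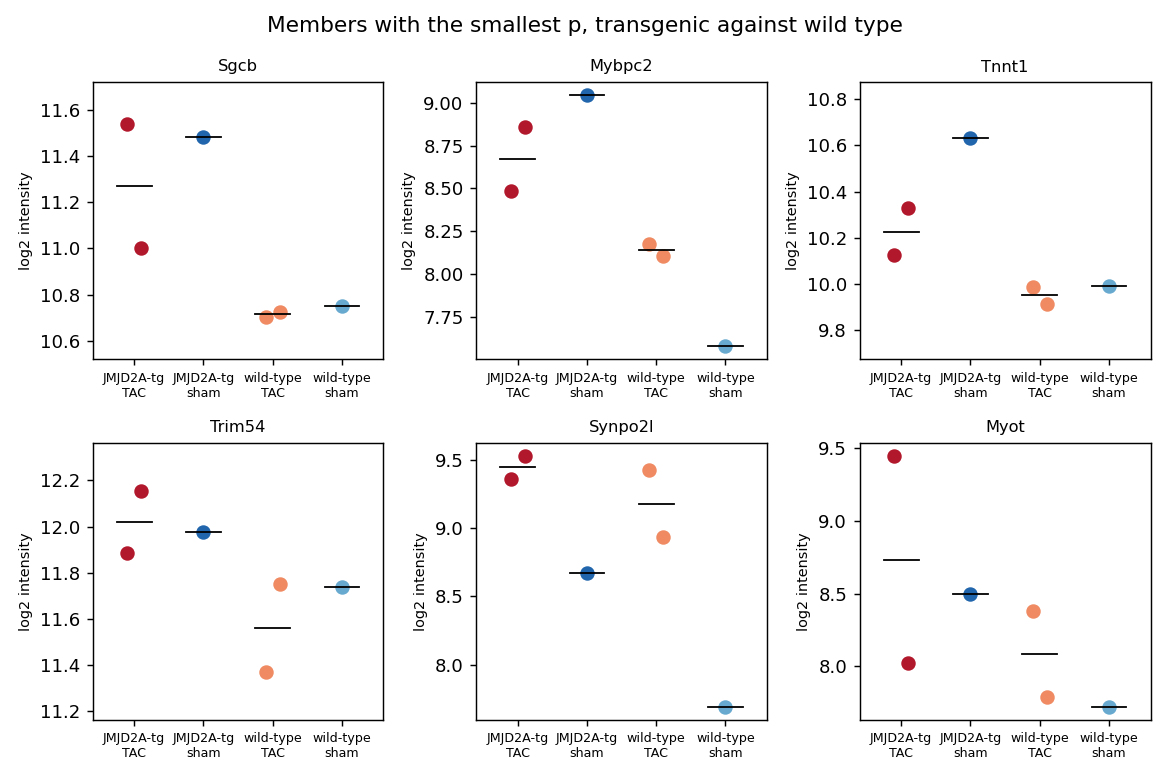
Log2 intensity of the 6 members with the smallest p for JMJD2A-tg against wild type, 1 point per array, with JMJD2A-tg groups left of the wild-type groups. Sgcb, Mybpc2, Tnnt1 and Trim54 show no overlap between genotypes, while Synpo2l and Myot overlap.

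After TAC alone, Sgcb was 0.56 ± 0.21 higher in JMJD2A-tg arrays (adjusted p = 0.736), Trim54 0.46 ± 0.18 (adjusted p = 0.814) and Mybpc2 0.53 ± 0.22 (adjusted p = 0.839). Tpm1 was at -0.42 ± 0.26, Myom2 at 0.27 ± 0.15 and Tnnt1 at 0.28 ± 0.18, each with an adjusted p of 0.999 (limma, 2 arrays against 2). These TAC arrays are among those of the comparison over both surgeries, so the values are not independent of it. None of the 25 members passed, against 0.206% of all genes, and 3 members against 5.76% of all genes had an unadjusted p under 0.05. In 5 members both JMJD2A-tg TAC arrays lay above both wild-type TAC arrays and in 2 below, against 15.5% and 16.8% of all genes. Without the second JMJD2A-tg TAC array, Sgcb was at 0.82 and Myot at 1.36, against 0.65 ± 0.43 for Myot with all arrays. That fit sets 1 JMJD2A-tg array against 2 wild-type arrays, takes its spread from the wild-type pair and assumes that the lone array varies like it. Tpm1 was at -0.79 without the second JMJD2A-tg TAC array and -0.04 without the first, and Myom2 at 0.44 and 0.10.

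The JMJD2A-tg sham array was low in Xist (5.41) and the wild-type sham array was not (10.50). Between these arrays genotype therefore cannot be told apart from the difference in Xist. Compared by size, Mybpc2 was 1.47 higher in the JMJD2A-tg sham array. It was the only member with a log2 difference of 1 or more, a size that 1.04% of all genes reached. Synpo2l followed at 0.98, Tpm2 at 0.79, Myot at 0.78, Sgcb at 0.73 and Tnnt1 at 0.64. Of the 25 members, 14 were higher and 11 lower in the JMJD2A-tg sham array, with a median of 0.06 beside -0.02 over all genes. In the 4-group fit, a test added after the values were seen in which the lone sham arrays take their spread from the TAC pairs, 0 of 25 members and 0.0269% of all genes passed (limma). At an unadjusted p under 0.05 there were 4 members, beside 5.52% of all genes, with Mybpc2 at 1.47 ± 0.31 (adjusted p = 0.375) the first of them.

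The JMJD2A-tg TAC arrays were further apart from each other in these genes than the wild-type TAC arrays. The SD of the log2 difference within the pair was 0.626 over the members in JMJD2A-tg TAC hearts and 0.262 in wild-type TAC hearts, beside 0.391 and 0.252 over all tested genes. In the JMJD2A-tg pair 8 of 25 members (32%) differed by 0.5 or more, against 16.4% of all genes, and in the wild-type pair 2 of 25 (8%), against 4.23% of all genes. No test was made of this difference, and each pair holds 2 arrays.

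Tpm2 was the member whose probes disagreed most. Its 3 probes are annotated to the same transcript, and their positions within it are not known here. The middle probe by brightness stood at 8.09 and 8.62 in the JMJD2A-tg TAC arrays and 8.60 in the JMJD2A-tg sham array, against 6.70 and 6.27 in the wild-type TAC arrays and 6.11 in the wild-type sham array. The dimmest probe gave 6.40 and 6.87 in the JMJD2A-tg TAC arrays and 6.51 in the JMJD2A-tg sham array, against 6.12 and 5.68 in the wild-type TAC arrays and 5.76 in the wild-type sham array. On both of these probes every JMJD2A-tg array was above every wild-type array, while the brightest probe overlapped.

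Tested among all 17442 probes above the filter, a setting added after the values were seen, the middle Tpm2 probe was 2.08 ± 0.21 higher in JMJD2A-tg arrays, or 4.22-fold (limma, adjusted p = 0.00781, higher in 3 of 3 arrays). It was the only called probe among 44 probes of the tested members, beside 0.453% of all probes. The dimmest probe was at 0.74 ± 0.16 (adjusted p = 0.124) and the brightest at 0.19 ± 0.29 (adjusted p = 0.885). The brightest probe changed sign to -0.10 without either sham array, to -0.02 without the second JMJD2A-tg TAC array and to -0.25 without both arrays low in Xist. The dimmest probe passed without the first (0.88, adjusted p = 0.0300) or the second (0.61, adjusted p = 0.0499) JMJD2A-tg TAC array. The middle probe lost the call without the wild-type sham array (adjusted p = 0.127), the JMJD2A-tg sham array (adjusted p = 0.107) or the second wild-type TAC array (adjusted p = 0.0753). Without both arrays low in Xist it was at 1.65 ± 0.38 (adjusted p = 1.00).

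**Figure D5:**
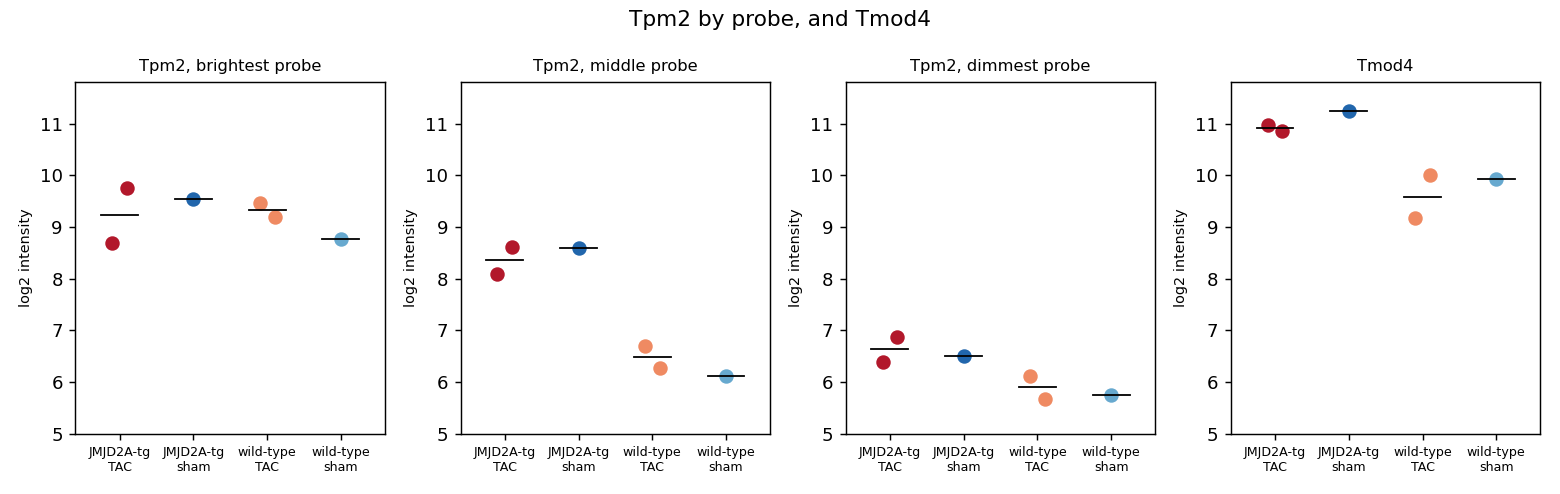
Log2 intensity of the 3 Tpm2 probes and of the Tmod4 probe on each array, JMJD2A-tg groups left of the wild-type groups. The middle and dimmest Tpm2 probes and Tmod4 separate the genotypes, and the brightest Tpm2 probe does not.

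For JMJD2A-tg against wild type over both surgeries all 3 Tpm2 probes were positive, and the members with probes of both signs were Tpm4, Actn2, Ldb3, Myoz2, Cmya5, Mb and Sgca. The widest gaps among these were in Myoz2, at -0.08 by the brightest probe and 0.40 by the other, and in Actn2, at -0.13 and up to 0.26. For TAC against sham over both genotypes only Actn2 and Mb had probes of both signs, all between -0.12 and 0.03. After TAC alone, Tpm2 was at -0.10 by the brightest probe, 0.74 by the dimmest and 1.87 by the middle probe (adjusted p = 0.124 for the middle probe over all probes), and Tpm4, Actn2, Ldb3 and Myoz2 also had probes of both signs. The same held for Actn2, Ldb3 and Myoz2 within wild-type hearts, for Tpm2, Actn2 and Mb within JMJD2A-tg hearts, and for Tpm1, Actn2, Ldb3 and Mb in the difference of responses.

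Of 40 other sarcomere genes, 30 were tested, and of 29 other costamere genes, 23 were. In these lists 1 gene passed in any comparison, the sarcomere gene Tmod4, a skeletal muscle tropomodulin and a relative of Tmod1. Tmod4 stood at 10.97 and 10.86 in the JMJD2A-tg TAC arrays and 11.25 in the JMJD2A-tg sham array, against 9.17 and 10.00 in the wild-type TAC arrays and 9.93 in the wild-type sham array, and the genotypes did not overlap. It was 1.33 ± 0.20 higher in JMJD2A-tg arrays (limma, adjusted p = 0.0173). The call was lost without the wild-type sham array (adjusted p = 0.161), the JMJD2A-tg sham array (adjusted p = 0.169), the first wild-type TAC array (adjusted p = 0.0547) or both arrays low in Xist (adjusted p = 0.365).

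For TAC against sham over both genotypes, Xirp2, an actin-binding protein of the intercalated disc, was at 0.99 ± 0.26 (adjusted p = 0.325) and Flnc, the Z-disc filamin, at 0.43 ± 0.14 (adjusted p = 0.415). Without the first JMJD2A-tg TAC array Xirp2 was at 1.24 (adjusted p = 0.0177) and passed, among 37 of all tested genes. Within wild-type hearts Xirp2 was at 1.36 ± 0.34 and Flnc at 0.58 ± 0.20 (adjusted p = 1.00 for both), with Xirp2 passing without the first (adjusted p = 0.0268) or the second (adjusted p = 0.0307) JMJD2A-tg TAC array, whose absence changes only the spread. Within JMJD2A-tg hearts the myosin chaperone gene Unc45b was at -0.50 ± 0.20 and Mypn, encoding the Z-disc protein myopalladin, at -0.57 ± 0.24 (adjusted p = 0.991 for both). After TAC alone, Tmod4 was 1.33 ± 0.27 higher in JMJD2A-tg arrays (adjusted p = 0.162) and Flnc was at -0.52 ± 0.16 (adjusted p = 0.586). Without the second JMJD2A-tg TAC array Flnc was at -0.73. In the difference of responses, Unc45b was at -0.70 ± 0.28 and Lmod3, a leiomodin of skeletal muscle thin filaments, at -0.68 ± 0.33 (adjusted p = 1.00 for both).

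Mybpc2, Tnnt1, Tpm2 and Tmod4 are best known from skeletal muscle, so markers of that tissue are given beside them. Of 12 skeletal muscle markers, 6 were above the filter, and their summed intensity was 452 and 406 in the JMJD2A-tg TAC arrays and 439 in the JMJD2A-tg sham array, against 480 and 490 in the wild-type TAC arrays and 508 in the wild-type sham array. The sum was thus lower in every JMJD2A-tg array. Of these 6 genes, 2 were lower on every JMJD2A-tg array and 0 higher, beside 8.55% and 7.59% of all genes, and 0 passed the test. All 6 were dim, since the sums of 406 to 508 compare with a filter of 58.7 intensity units for each gene. Sums so near the filter cannot show whether skeletal muscle RNA differed between the genotypes. The fast skeletal myosins Myh1 and Myh4, and Tnnt3, Tnnc2 and Myod1, were under the filter, and the fast skeletal myosin Myh2 had no named probe. The macrophage list, with 6 of 7 genes above the filter and Cd68 without a named probe, summed to 4045 and 2873 in the JMJD2A-tg TAC arrays and 2983 in the JMJD2A-tg sham array, against 2769 and 2845 in the wild-type TAC arrays and 2049 in the wild-type sham array. It was higher on every JMJD2A-tg array, but the nearest arrays of the genotypes, at 2873 and 2845, were almost level. Lyz2, the brightest gene of the list, overlapped, at 10.16 in the second JMJD2A-tg TAC array against 10.56 and 10.51 in the wild-type TAC arrays. Of the 6 genes, 2 were higher on every JMJD2A-tg array and 0 lower, beside 7.59% and 8.55% of all genes, and 0 passed the test. The smooth muscle list, with Cnn1 below the filter, summed to 16618 and 21479 in the JMJD2A-tg TAC arrays and 17443 in the JMJD2A-tg sham array, against 33046 and 25399 in the wild-type TAC arrays and 22403 in the wild-type sham array, so it was lower on every JMJD2A-tg array. Acta2, the smooth muscle actin, fell in JMJD2A-tg arrays by 1.67 on the log2 scale (SE 0.23, limma adjusted p = 0.0118). The other 6 tested genes of the list did not pass. Acta2 ranged from 11.40 to 11.87 on JMJD2A-tg arrays and from 13.01 to 13.91 on wild-type arrays. Of the 7 genes, 3 (Acta2, Smtn and Tagln) were lower on every JMJD2A-tg array and 0 higher, beside 8.55% and 7.59% of all genes. The remaining tested genes of the list overlapped between the genotypes. Des, a member that is also in the list, was the brightest of its genes other than Acta2. It ranged from 13.24 to 13.72 on JMJD2A-tg arrays and from 13.18 to 13.51 on wild-type arrays. The list was not summed without Acta2, so its lower sums cannot be read as a trait of the list apart from that gene. The part of these lists in the members' values was not tested.

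Promoters are shown for 4 members chosen after their values were seen: Synpo2l, which had the largest TAC difference and has 2 annotated starts, Mybpc2 and Sgcb, which had the largest difference and the smallest p by genotype, and Tpm2, which had the called probe. Each is the 250 bases before an annotated start in RefSeq (build GRCm38.p6), written 5′ to 3′ on the gene's strand, which is the minus strand for all of them. Capitals mark matches, on either strand, to an E-box (CANNTG, bound by myogenic factors), an MCAT element (CATTCC), a CArG box, a MEF2 box or TATAAA, and no base lies in more than 1 match.
Synpo2l, upstream start, chr14:20668355-20668604: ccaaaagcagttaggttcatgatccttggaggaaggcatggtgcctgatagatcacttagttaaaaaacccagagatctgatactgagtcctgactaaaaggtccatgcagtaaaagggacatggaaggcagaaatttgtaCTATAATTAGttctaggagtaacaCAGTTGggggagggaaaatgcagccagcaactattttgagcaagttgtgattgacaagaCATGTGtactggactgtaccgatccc
Synpo2l, downstream start, chr14:20664575-20664824: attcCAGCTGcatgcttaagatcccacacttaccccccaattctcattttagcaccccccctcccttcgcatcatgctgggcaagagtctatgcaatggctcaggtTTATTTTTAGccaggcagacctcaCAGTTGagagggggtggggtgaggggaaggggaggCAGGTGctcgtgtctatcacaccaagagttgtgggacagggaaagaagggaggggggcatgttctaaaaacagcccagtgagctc
Mybpc2, chr7:44524670-44524919: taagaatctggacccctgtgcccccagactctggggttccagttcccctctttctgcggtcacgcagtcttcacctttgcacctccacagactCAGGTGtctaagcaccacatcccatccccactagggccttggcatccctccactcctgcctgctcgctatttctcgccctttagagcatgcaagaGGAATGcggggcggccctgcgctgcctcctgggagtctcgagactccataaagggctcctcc
Sgcb, chr5:73647738-73647987: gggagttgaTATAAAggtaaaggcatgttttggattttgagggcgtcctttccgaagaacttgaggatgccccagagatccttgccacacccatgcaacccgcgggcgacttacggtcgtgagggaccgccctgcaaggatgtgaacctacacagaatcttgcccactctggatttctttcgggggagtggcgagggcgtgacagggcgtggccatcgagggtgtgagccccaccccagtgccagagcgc
Tpm2, chr4:43523555-43523804: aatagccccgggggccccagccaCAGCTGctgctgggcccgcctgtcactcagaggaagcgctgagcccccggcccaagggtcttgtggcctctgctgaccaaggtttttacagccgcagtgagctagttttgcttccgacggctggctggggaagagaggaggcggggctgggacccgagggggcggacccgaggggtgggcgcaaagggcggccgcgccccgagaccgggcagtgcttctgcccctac
Both Synpo2l promoters held 1 MEF2 box match, which 2.92% of 32851 promoters of the same length held, and 2 and 3 E-box matches, a motif found in 66.2% of promoters. The Mybpc2 promoter held 1 E-box and 1 MCAT match (12.6% of promoters), the Sgcb promoter 1 TATAAA match (12.4%), and the Tpm2 promoter 1 E-box match. No CArG box (1.47% of promoters) was found in these windows. The matches describe the sequence and were not set against the intensities.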

How the data were processed

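Mouse heart RNA was hybridised to 6 Illumina arrays, 1 per sample, per the labels' protocols. The deposited values are linear probe intensities; their sorted columns agree within 0.0064 on the log2 scale, so the arrays share a distribution, while the sources used here do not name the software or background correction. Probes were named from the platform annotation (34885 of 45281 with 1 symbol). Intensities were floored at 32 and log2-transformed, the brightest probe per gene was kept, and genes whose mean exceeded the median probe (58.7) were tested. No count of molecules exists for arrays, so the number of arrays limits precision. limma 3.58.1 in R 4.3.3 fitted all tested genes with an intensity trend: surgery plus genotype for effects over both factors (3 residual and 6.14 prior degrees of freedom), and 4 group means for the others (2 and 6.25). Lone sham arrays were assumed to vary like the TAC arrays. P-values were adjusted by Benjamini-Hochberg over all tested genes. The sham pair was compared by size.

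The members and lists were chosen with earlier results of these data known. All-array values are given for each member past the test and, where fewer than 6 pass, for those with the smallest p up to 6. The 2 other sarcomere or costamere genes with the smallest p are named, and members whose probes differ in direction are given by their other probes too. The Tpm2 probe test and the test of the sham pair were added after the values were seen. Alternatives were the median over probes, no or a stricter filter, background subtraction, median centring, no trend, Xist as a covariate, both low-Xist arrays left out, a replicate block and each array left out. The code was tested on simulated data. All deposited columns were used.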

Additional observations from a re-analysis of the deposited data

Results flagged for a closer look

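Mybpc2 had TAC arrays on opposite sides of sham in the genotypes. The difference from sham was -0.38 in JMJD2A-tg hearts and 0.56 in wild-type hearts, a difference of responses of -0.94, with an unadjusted p of 0.0387 and an adjusted p of 1.00 (limma interaction). Both TAC arrays of each genotype lay on their side of the lone sham array. The JMJD2A-tg sham array was low in Xist and the JMJD2A-tg TAC arrays were not. TAC cannot be told apart from that difference in JMJD2A-tg hearts. Mybpc2 was the only 1 of 25 tested members with TAC arrays on opposite sides of sham, an arrangement that 1559 of 11166 tested genes (14%) had.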

How the results depend on the processing

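For the 6 members and the related genes with the smallest p in each comparison, 615 values were recomputed under the alternatives. Of these, 601 kept their direction and side of the threshold, 10 newly passed, 4 no longer passed (all Tmod4) and 0 reversed. Only Tmod4 for genotype over both surgeries had passed with all arrays, so no other call could be lost. Leaving out an array outside a contrast of group means keeps the difference unchanged, so part of this agreement was fixed in advance. This tally leaves out the Tpm2 probes, of which the brightest reversed for genotype over both surgeries (-0.25 without both low-Xist arrays, -0.10 to 0.58 without single arrays) and after TAC (-0.63 to 0.43 without single arrays). Members past the test for JMJD2A-tg against wild type over both surgeries were 0, but 1 by the median over probes (Tpm2, 2.08 ± 0.20, adjusted p = 0.00550), 1 with each probe tested, and 0 to 2 when single arrays were left out. The same range was 0 to 1 for TAC within JMJD2A-tg and 0 to 2 for JMJD2A-tg against wild type after TAC. The cause was not tested. Between the sham arrays 1 member reached a log2 size of 1, but 2 by the median over probes (with Tpm2 at 2.49) and 2 with background subtracted (with Synpo2l at 1.07), and 0 passed the test of that pair. Over all genes, the 106 called for genotype became 49 by the median over probes, 54 with Xist as a covariate, 0 without both low-Xist arrays (4 arrays) and 24 to 474 without single arrays. The 23 called after TAC became 5 by the median over probes, 38 without a filter, 8 with centring, 8 without a trend, 0 without both low-Xist arrays and 0 to 191 without single arrays. The 1 call for TAC over both genotypes became 2 without a filter, 0 without a trend, 0 with Xist and 0 to 37 without single arrays. The 0 calls became 5 without a filter, 10 with Xist and 0 to 11 without single arrays for wild-type TAC, 1 without a filter and 0 to 245 for JMJD2A-tg TAC, and 5 with Xist and 0 to 1 for the difference of responses. Without both low-Xist arrays no JMJD2A-tg sham array remains, so TAC within JMJD2A-tg and the difference of responses could not be fitted. Same-numbered TAC arrays did not deviate together (correlation -0.03), so the numbers were not taken as pairs; the replicate block gave 61 genes past the test after TAC and 0 members, with Tmod4 at an adjusted p of 0.0396. Each sham group holds 1 array, so no sham spread was measured, and signals of Actn2, Tnnc1, Mb and Mybpc3 lay near the top of the range.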
